A study of Rattus norvegicus with 304 samples.

Results

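The experiment described here is the earliest point of a dioxin time course: livers of Han/Wistar rats collected 1.5 h after a single oral dose. Its members were chosen by strain and time. They are 6 OpenArray samples of 150 in the series, 3 from rats given TCDD at 100 µg/kg and 3 from rats given the corn oil vehicle alone, and the same 6 sample titles run again on a second instrument, the 7900HT, which makes 12 of 304 samples on both platforms. The design text speaks of 4 to 5 animals per group, and 3 are listed for each group here. Since the titles are shared, the second platform repeats the measurement and not the animals. All were males of 10 to 12 weeks, with the strain described by the submitters as resistant to TCDD, and the sensitive Long-Evans strain has no group at 1.5 h. The study as a whole set 2 quantitative PCR platforms side by side on liver RNA from both strains across doses and times. TCDD is 2,3,7,8-tetrachlorodibenzo-p-dioxin. The OpenArray runs many small-volume PCR reactions in parallel, while the 7900HT is a conventional plate instrument.

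As background, TCDD enters cells and binds the aryl hydrocarbon receptor (AHR, gene Ahr), which moves to the nucleus, pairs with ARNT and binds DNA with the core GCGTG. Genes so switched on include the cytochromes P450 Cyp1a1, Cyp1a2 and Cyp1b1, the aldehyde dehydrogenase Aldh3a1, the quinone reductase Nqo1 and, as negative feedback, Ahrr (the AHR repressor) and Tiparp (an ADP-ribosyltransferase that represses AHR). The liver is a main site of this response, because hepatocytes carry much of the body's oxidative and conjugating metabolism.

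To show the promoters of genes that the results below turn on, the 250 bases before the RefSeq start of 4 of them are printed from the table for GRCr8, 5′ to 3′ on the gene's strand, with GCGTG, or CACGC where the core is on the other strand, in capitals. Tiparp lies at chr2:152063519-152063768 (+), Cyp1b1 at chr6:21094315-21094564 (+), Ahrr at chr1:30821969-30822218 (+) and Exoc3 at chr1:30919625-30919874 (+). The windows of Tiparp, Cyp1b1 and Ahrr are shown because these are AHR targets described in detail here, and that of Exoc3, an exocyst subunit, because its 2-fold difference had opposite signs on the 2 platforms. Cyp1a1 and Aldh3a1 have no entry.
Tiparp: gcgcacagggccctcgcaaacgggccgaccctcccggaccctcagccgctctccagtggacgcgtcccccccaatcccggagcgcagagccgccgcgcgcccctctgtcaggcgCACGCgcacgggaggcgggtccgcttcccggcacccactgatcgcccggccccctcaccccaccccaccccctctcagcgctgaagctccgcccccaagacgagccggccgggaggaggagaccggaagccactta
Cyp1b1: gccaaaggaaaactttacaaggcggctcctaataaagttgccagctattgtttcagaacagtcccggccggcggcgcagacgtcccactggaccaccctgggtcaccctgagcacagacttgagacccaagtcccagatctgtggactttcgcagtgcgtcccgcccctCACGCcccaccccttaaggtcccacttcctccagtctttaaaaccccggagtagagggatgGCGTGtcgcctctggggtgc
Ahrr: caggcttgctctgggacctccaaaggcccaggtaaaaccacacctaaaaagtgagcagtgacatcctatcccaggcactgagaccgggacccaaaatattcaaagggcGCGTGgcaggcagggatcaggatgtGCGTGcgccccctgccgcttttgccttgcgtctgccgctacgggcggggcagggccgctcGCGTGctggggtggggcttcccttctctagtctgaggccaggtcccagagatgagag
Exoc3: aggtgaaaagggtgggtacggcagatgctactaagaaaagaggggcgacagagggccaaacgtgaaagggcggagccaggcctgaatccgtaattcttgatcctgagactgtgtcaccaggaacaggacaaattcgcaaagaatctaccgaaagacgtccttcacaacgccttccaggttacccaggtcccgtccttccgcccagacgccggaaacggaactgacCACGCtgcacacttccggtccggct

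Within these windows Tiparp holds 1 core, which begins 136 bases before the start, Cyp1b1 holds 2 (81 and 20 bases before it), Ahrr 3 (142, 117 and 57) and Exoc3 1 (25). Either orientation of the core occurs in 25.9% of the 33469 windows of this length in the table, 2 or more in 8.12% and 3 or more in 2.58%. Of the panel, 41 of 50 targets have a window and 18 of these hold the core, among them Cmkor1 (3), Pmm1 (2) and Nqo1 (1), whereas the windows of Cyp1a2, Ahr, Nfe2l2, Inmt, Fmo1, Ugt1a1 and Scn4b hold none. A match of 5 letters is a description of the sequence, and binding was not measured.

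Each group has 1 deposited value per gene, the log2 fold change against Han/Wistar corn oil at 19 h, which is 0 by construction (log base inferred). The values below labelled as differences are TCDD minus corn oil at 1.5 h, so the 19 h reference cancels. The groups behind these values have 3 to 7 samples each. No value per rat was used, hence no SD between rats, no test and no p-value can be given. A target is called higher or lower here when the difference reached 1 log2 unit, that is 2-fold, and the yardstick for spread is the range of the gene's own 5 corn oil groups (1.5, 19, 96, 240 and 384 h), 4 where a value is missing. On the OpenArray 48 of 49 targets have a difference at 1.5 h. Of these 5 (10.4%) were at least 2-fold higher after TCDD, namely Aldh3a1, Tiparp, Cyp1b1, Exoc3 and Cyp1a1, and 1 (2.08%) was lower, Scn4b. The median difference of all 48 was 0.30. The remaining 42 targets lay between -0.26 and 0.89, and 32 of the 48 were under 1.5-fold. These 6 calls named the same genes after each group was centred on its median or on its mean, although the centring moved the median by 0.27 or 0.62 and turned the split of all differences from 40 above and 8 below 0 to 26 and 22, or 12 and 36. The subtracted mean includes the 5 targets called higher and leaves out Scn4b, so mean centring lowers small differences by construction. A sign turned by mean centring alone is therefore a weak check.

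**Figure D1:**
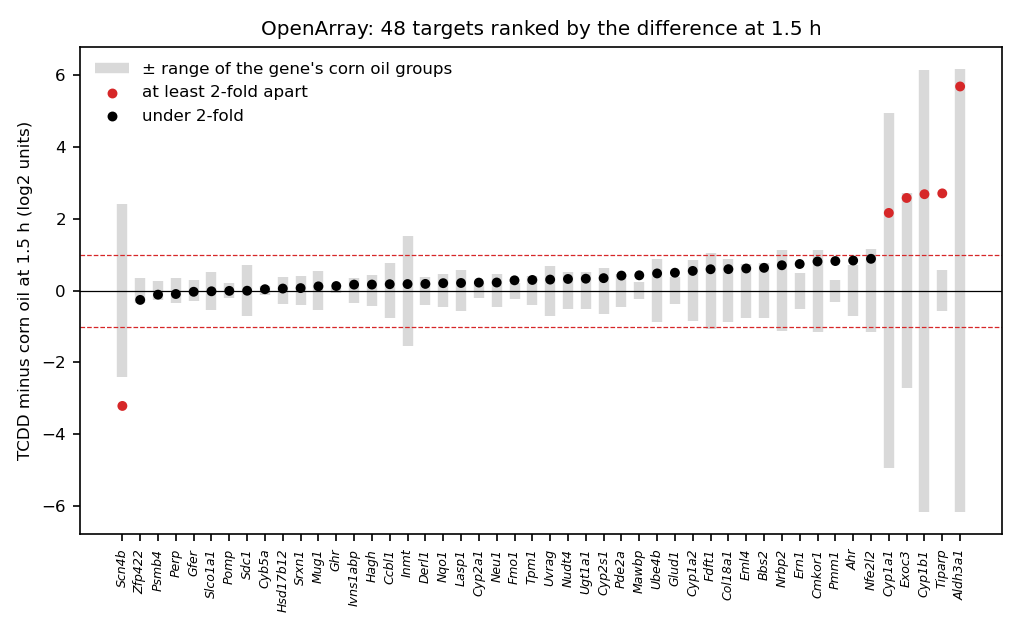
TCDD minus corn oil at 1.5 h (vertical axis, log2 units) for the 48 OpenArray targets, in rank order. Red points are at least 2-fold apart, black points are not, each grey bar spans plus and minus the range of that gene's corn oil groups, and dashed lines mark 2-fold. Tiparp and Scn4b lie beyond their bars, while Aldh3a1, Cyp1b1, Exoc3 and Cyp1a1 lie inside them.

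Tiparp gave the clearest separation. Its TCDD group stood at 2.50 and its corn oil group at -0.20 at 1.5 h in the authors' deposited table, with the other corn oil groups at 0.00, 0.36, 0.34 and 0.17 at 19, 96, 240 and 384 h. The TCDD group was above every corn oil group, and the difference of 2.71 (6.53-fold) was larger than the corn oil range of 0.56. At 19 h the difference was 3.02, so 89.5% of it on the log2 scale was already present at 1.5 h. The authors' deposited table has the 100 µg/kg groups at 2.50, 3.37, 2.67, 2.87, 3.02, 2.13, 3.37 and 2.18 at 1.5, 3, 6, 10, 19, 96, 240 and 384 h. The lowest of these was 2.13 and the highest 3.37. On the 7900HT the difference was 3.18, within a corn oil range of 5.58.

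Cyp1a1, the P450 most used as a readout of AHR activity, was high in both groups at 1.5 h. TCDD stood at 5.63 and corn oil at 3.47 in the authors' deposited table, while the later corn oil groups lay between -1.48 and 1.27. The TCDD group was above all corn oil groups, but its own control was the highest of the 5 corn oil groups. The difference was 2.16 (4.48-fold), 21.7% of the 9.99 seen at 19 h on the log2 scale and inside the corn oil range of 4.95. Against corn oil at 19 h it was 5.63, and against the mean over all corn oil groups 4.84. On the 7900HT the authors' deposited table gives Cyp1a1 at 9.55 after TCDD and 3.16 after corn oil, again the highest corn oil group (others -3.24 to 0.34). There the difference was 6.39, just under the corn oil range of 6.40.

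Aldh3a1, which oxidises aldehydes and is scarcely expressed in untreated liver, had the widest OpenArray difference, 5.68 (51.4-fold), inside its corn oil range of 6.17. Its groups stood at 2.36 after TCDD and -3.33 after corn oil at 1.5 h in the authors' deposited table. The controls scattered from -3.54 at 384 h to 2.62 at 240 h in the authors' deposited table, so the TCDD value lay within the corn oil groups. Taking the mean over all corn oil groups as control gave a difference of 2.93, and taking corn oil at 19 h gave 2.36. The 7900HT difference was 1.35, where the authors' deposited table lists corn oil between -4.40 and 23.00.

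Cyp1b1, a P450 that metabolises oestrogens and polycyclic hydrocarbons, had a similar scatter in its controls. The authors' deposited table has it at 2.09 after TCDD and -0.59 after corn oil at 1.5 h, and 4.38 and 5.05 in corn oil at 96 and 240 h. The difference was 2.68 (6.43-fold) on the OpenArray and 1.10 on the 7900HT, both inside the corn oil range, and 0.55 on the OpenArray when all corn oil groups were averaged as the control. At 19 h the OpenArray difference was 10.62, so 25.3% of it on the log2 scale was present at 1.5 h with the control of that time.

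Ahrr had no corn oil value at 1.5 h on the OpenArray and therefore no difference. Its TCDD group stood at 3.26 in the authors' deposited table, above the 4 corn oil groups that have a value (-0.26 to 2.29), and later TCDD groups at 3.71, 4.19, 3.71 and 4.95 at 3, 6, 10 and 19 h. On the 7900HT both groups at 1.5 h were far below the 19 h control, at -9.70 and -10.89 in the authors' deposited table, and the difference of 1.19 was small beside a corn oil range of 17.92.

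**Figure D2:**
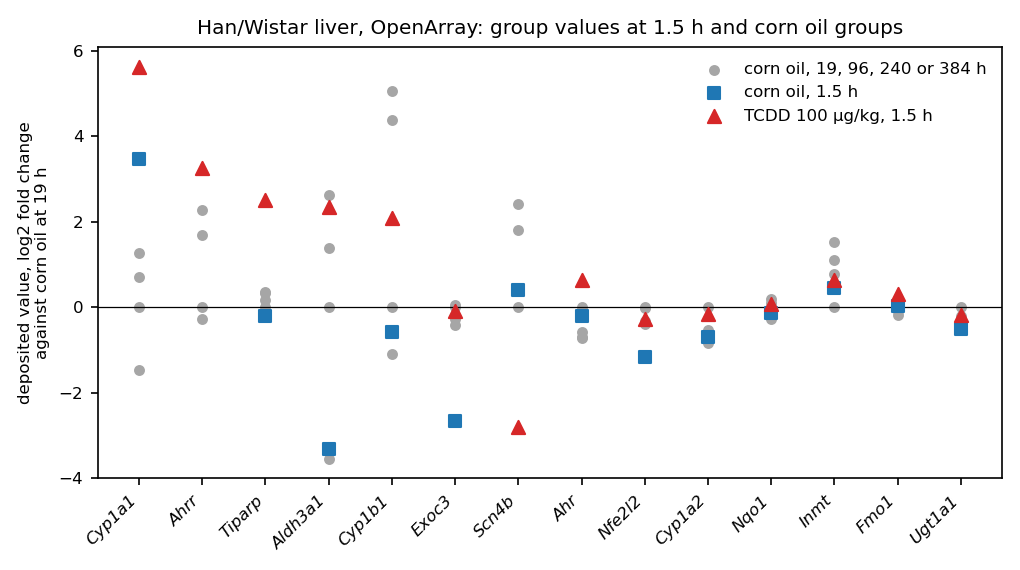
Deposited OpenArray log2 fold changes against corn oil at 19 h (vertical axis) for 14 genes: TCDD at 1.5 h (red triangles), corn oil at 1.5 h (blue squares) and corn oil at 19, 96, 240 and 384 h (grey circles), 1 point per group. For Tiparp, Ahrr, Ahr, Fmo1 and Cyp1a1 the triangle is above every corn oil point, and for Exoc3 the blue square is the point that stands apart. Ahrr has no blue square.

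The 2-fold call of Exoc3 rested on the control at 1.5 h. Corn oil at 1.5 h stood at -2.66 in the authors' deposited table, below the other corn oil groups (-0.41 to 0.05), while the TCDD group was at -0.08, inside them. The difference of 2.58 (5.98-fold) became -0.08 against corn oil at 19 h and 0.58 against the mean over all corn oil groups. On the 7900HT it was -1.95, the opposite sign, with TCDD at -2.49 and corn oil at -0.53 in the authors' deposited table. Exoc3 was the sole target with opposite 2-fold calls on the platforms.

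Scn4b, a sodium channel beta subunit, was the only target called lower on the OpenArray, and it is not among the targets of the 7900HT. It stood in the authors' deposited table at -2.81 after TCDD and 0.40 after corn oil at 1.5 h, with 0.00, 1.82 and 2.42 in corn oil at 19, 96 and 240 h. The TCDD group was below all of these, and the difference of -3.21 exceeded the corn oil range of 2.42. That range rests on 4 groups, since corn oil at 384 h has no value for Scn4b. By 3 h the TCDD group was at 2.12 in the authors' deposited table, 4.93 above its value at 1.5 h.

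The AHR battery, as listed here, has 12 members on the panel. They are Cyp1a1, Cyp1a2, Cyp1b1, Aldh3a1, Nqo1, Nfe2l2, Tiparp, Ahrr, Exoc3, Ugt1a1, Fmo1 and Inmt. Those not described above were under 2-fold on the OpenArray. Cyp1a2, the liver P450 of caffeine metabolism, differed by 0.55, Nqo1 by 0.21, Ugt1a1 (bilirubin glucuronidation) by 0.33, Fmo1 by 0.29 and Inmt by 0.18. Nfe2l2, which encodes the oxidative stress factor NRF2, differed by 0.89, and the authors' deposited table shows its corn oil group at -1.16 as the lowest corn oil value (others -0.39 to 0.00) and TCDD at -0.27. Counted together, 11 of the 12 battery members on the panel had a difference, of which 5 were called higher and 0 lower, where 10.4% of all targets were called higher and 2.08% lower. Their median was 0.89 against 0.30 over all 48 targets. With all corn oil groups averaged as the control 4 of 12 were called higher and 0 lower, where 5 of all 49 targets were called higher and 1 lower. All 11 were above 0, but 9 after median centring and 6 after mean centring. The battery was listed with results of these data known, so its count is no independent evidence of direction. It also mixes directions, since Inmt and Ugt1a1 were at -4.47 and -1.09 at 19 h, and it counts Exoc3, whose call rested on the control. On the 7900HT 6 of 12 members were called higher and 4 lower (Exoc3, Inmt, Ugt1a1 and Nqo1), where 35.9% of all targets were called higher and 35.9% lower.

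Of the receptor's own machinery, Ahr differed by 0.84 (1.79-fold) on the OpenArray. The authors' deposited table has Ahr at 0.63 after TCDD and -0.21 after corn oil at 1.5 h, with the other corn oil groups from -0.72 to 0.00. The TCDD group was above every corn oil group, and the difference exceeded the corn oil range of 0.72. At 3, 6, 10 and 19 h the TCDD groups were at -0.25, 0.00, -0.10 and -0.08 in the authors' deposited table, so the value at 1.5 h was the highest up to 19 h, and 0.69 was reached at 96 h. After mean centring the Ahr difference was 0.22, and on the 7900HT it was -0.85, inside a corn oil range of 6.00. Arnt was measured on the 7900HT alone and differed there by -1.44, also inside its corn oil range of 4.56.

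By the second yardstick, a difference larger than the gene's corn oil range, 9 OpenArray targets of 48 (18.8%) were higher and 1 (2.08%, Scn4b) was lower. Besides Tiparp and Ahr the 9 were Pmm1 at 0.82, Ern1 at 0.74, Glud1 at 0.50, Mawbp at 0.43, Fmo1 at 0.29, Cyp2a1 at 0.22 and Ghr at 0.13. Pmm1 is a phosphomannomutase, Ern1 the stress sensor IRE1 of the endoplasmic reticulum, Glud1 glutamate dehydrogenase and Ghr the growth hormone receptor. These 7 are under 2-fold, and with mean centring 5 of them were below 0, with Glud1 at -0.12, Mawbp at -0.19, Fmo1 at -0.33, Cyp2a1 at -0.39 and Ghr at -0.49. Pmm1 and Ern1 were then at 0.21 and 0.12. With median centring Cyp2a1 and Ghr were below 0. On the 7900HT Pmm1 and Fmo1 also passed this yardstick, at 2.14 and 2.39, whereas Ern1 and Glud1 were at -0.81 and -0.41.

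In the other gene groups of the panel Scn4b was the 1 target called on the OpenArray, where 12.5% of all targets were called either way, a share at which lists this short would hold few calls. Of 5 targets of protein quality control 0 were called, with Ern1 at 0.74, Ube4b (a ubiquitin chain elongation factor) at 0.48, Derl1 (endoplasmic reticulum export) at 0.19, Pomp (proteasome maturation) at -0.01 and Psmb4 (a proteasome subunit) at -0.11. Another list, made with earlier results of these data known, held 3 liver genes as lower late after TCDD. Of these Fdft1 (squalene synthase) differed by 0.59, Glud1 by 0.50 and Mug1 (murinoglobulin) by 0.12, and 0 were called. The later OpenArray differences bear out that listing for Glud1 alone, at -0.78, -1.08 and -1.18 at 96, 240 and 384 h. Fdft1 was at 0.07, -0.42 and -0.15 and Mug1 at 0.69, 0.56 and 0.63 at these times. Among 5 targets listed as responding later, Pmm1 differed by 0.82, Cmkor1 (the chemokine scavenger Ackr3) by 0.81, Mawbp by 0.43 and Ccbl1 (cysteine conjugate lyase, now Kyat1) by 0.18, and Scn4b was the 1 called. The 4 hepatocyte genes on the panel (Cyp1a2, Fmo1, Inmt and Mug1) had a median of 0.23, which became -0.04 after median and -0.38 after mean centring. With mean centring the medians of the other lists also fell below 0. They went from 0.50 to -0.12 for Fdft1, Glud1 and Mug1 and from 0.43 to -0.19 for the later-responding targets. For protein quality control the median went from 0.19 to -0.43. With median centring these 3 medians were 0.23, 0.16 and -0.08. The subtracted mean includes the targets called higher, so its sign turns are a weak check, and the direction of these lists was not settled. None of the 14 listed markers of other liver cells was on the panel, so cell content was not tested. In bulk liver RNA fewer cells of a type and less RNA per cell cannot be told apart.

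The control group at 1.5 h itself lay outside the later controls for part of the targets. On the OpenArray 39 of its 48 values were below 0, the 19 h reference, with a median of -0.33. The medians of corn oil at 96, 240 and 384 h were also below 0, at -0.21, -0.11 and -0.29. Of the values at 1.5 h, 18 (37.5%) were below every other corn oil group while 5 (10.4%) were above them all. At least 2-fold below corn oil at 19 h were 5 targets (10.4%), in the authors' deposited table Aldh3a1 at -3.33, Exoc3 at -2.66, Nfe2l2 at -1.16, Fdft1 at -1.06 and Cmkor1 at -1.03, and 1 was above (2.08%), Cyp1a1 at 3.47. Centring on the median or the mean left 2 below and 1 above. For Nfe2l2, Fdft1 and Cmkor1 the TCDD group was at -0.27, -0.46 and -0.22 in the authors' deposited table, inside the range of the other corn oil groups. The TCDD group lay above every corn oil group for 15 of 49 targets (30.6%) and below every one for 3 (6.12%).

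The targets at least 2-fold higher at 19 h were in part 2-fold higher at 1.5 h already. The later differences used here each have their own corn oil group and share no control with 1.5 h. At 19 h 15 of 49 targets (30.6%) were at least 2-fold higher, 14 of them with a difference at 1.5 h, where 5 were called higher and 1 lower. Among all 48 targets with a difference at 1.5 h the calls were the same 5 higher (10.4%) and 1 lower (2.08%). The 14 had a median of 0.69 at 1.5 h, against 0.21 for the 31 targets under 2-fold at 19 h, and 13 of the 14 were above 0 (24 of the 31). After median centring 10 targets were higher at 19 h, of which 7 were above 0 and 5 called higher at 1.5 h, and after mean centring 4 of 7 were above 0, all 4 of them called. The 3 targets at least 2-fold lower at 19 h (6.12%), Inmt, Nrbp2 and Ugt1a1, were at 0.18, 0.71 and 0.33 at 1.5 h. With mean centring they were at -0.43, 0.09 and -0.28, and on the 7900HT Inmt and Ugt1a1 were called lower at 1.5 h, at -1.70 and -1.64. Nrbp2 is not a target of the 7900HT. It was at 0.44 with median centring and at -0.24 with corn oil at 19 h as control. The direction of these targets at 1.5 h is therefore not settled. At 96, 240 and 384 h 42.9%, 36.7% and 39.6% of targets were at least 2-fold higher, and 2.04%, 8.16% and 6.25% lower, with all 5 targets called higher at 1.5 h among the higher ones at each of these times. Across the 48 targets Pearson's r between 1.5 and 19 h was 0.54 and Spearman's rho 0.23, a description across genes that are not independent replicates.

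The step from 1.5 to 3 h needs no control, since both TCDD groups have the same reference, but it also holds whatever else differed between those times. On the OpenArray 13 of 49 targets (26.5%) were at least 2-fold higher at 3 h than at 1.5 h, and 1 (2.04%) was lower, Inmt at -1.04. The step was 5.47 for Aldh3a1, 4.93 for Scn4b, 2.86 for Cyp1a1, 2.61 for Nqo1 and 2.50 for Cyp1b1. Srxn1 (sulfiredoxin, an NRF2 target) stood 1.48 higher at 3 h and Nfe2l2 1.45, and the others past 2-fold were Eml4, Cmkor1, Ccbl1, Cyp1a2, Ube4b and Pmm1, from 1.07 to 1.67. For Tiparp the step was 0.87 and for Ahrr 0.46, both under 2-fold. On the 7900HT 10 of 39 targets (25.6%) were at least 2-fold higher at 3 h and 6 (15.4%) lower. Of the targets named, Aldh3a1 (5.88), Cyp1a1 (2.67), Nqo1 (2.66), Eml4, Ccbl1, Pmm1, Cyp1b1 and Ahrr were past 2-fold higher there. Srxn1 (0.32), Nfe2l2 (0.40), Cyp1a2 (0.84), Cmkor1 (0.81), Tiparp (0.55) and Inmt (-0.96) were under 2-fold, and Scn4b and Ube4b were not measured.

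**Figure D3:**
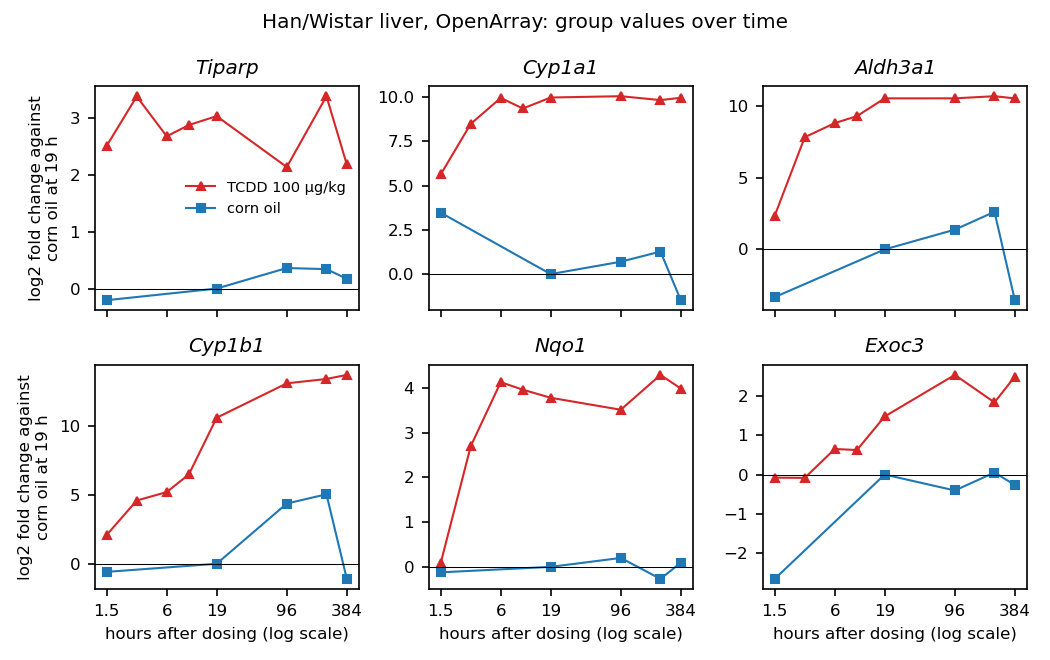
Deposited OpenArray log2 fold changes against corn oil at 19 h (vertical axes, each panel on its own scale) over hours after dosing (log axis) for 6 genes, 1 point per group; TCDD at 100 µg/kg in red, corn oil in blue. Tiparp is near its later level at 1.5 h (2.50 against 3.02 at 19 h), Nqo1 is at 0.09 and reaches 2.69 at 3 h, and the corn oil line of Cyp1a1 is highest at 1.5 h.

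The 1.5 h group can also be placed on the dose scale of 19 h, since both are given against the same corn oil group. The authors' deposited table places Tiparp, at 2.50, above the 1.07 of 1 µg/kg and under the 2.89 of 10 µg/kg. Cyp1a1, at 5.63, lay above 1.91 (0.01 µg/kg) and under 7.02 (0.1 µg/kg), as the authors' deposited table lists them. The value of Aldh3a1, 2.36, lay above -0.51 (0.1 µg/kg) and under 5.45 (1 µg/kg) by the authors' deposited table. These placements leave out the control at 1.5 h. By the difference from that control, Tiparp at 2.71 and Cyp1a1 at 2.16 lay between the same doses, Cyp1a1 close to the lower one. Aldh3a1 at 5.68 then lay above the 5.45 of 1 µg/kg. Times differ here as well, so these are placements and not comparisons of potency.

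The 7900HT served as a check of the measurement on the same sample titles. There 14 of 39 targets (35.9%) were at least 2-fold higher and 14 (35.9%) at least 2-fold lower at 1.5 h, which is 71.8% either way. Higher were Cyp1a1, Col18a1, Tiparp, Derl1, Srxn1, Fmo1, Pmm1, Gfer, Aldh3a1, Ghr, Ahrr, Cyp1b1, Mawbp and Perp, from 6.39 to 1.02. Lower were Cyb5a, Uvrag, Pde2a, Sdc1, Exoc3, Ivns1abp, Cyp2s1, Inmt, Ugt1a1, Arnt, Nqo1, Cmkor1, Neu1 and Lasp1, from -3.00 to -1.19. Beyond the corn oil range were 4 higher (10.3%: Col18a1, Srxn1, Fmo1 and Pmm1) and 7 lower (17.9%). Aldh3a1, Cyp1a1, Cyp1b1 and Tiparp were called higher on both platforms, and Exoc3 went opposite ways. After median centring of the 7900HT, Cyp1a1 at 5.31 and Tiparp at 2.10 stayed past 2-fold there, while Aldh3a1 at 0.27 and Cyp1b1 at 0.017 did not. With the sets of 4 and 2 rows per gene centred apart the 4 were at 7.24, 4.03, 2.21 and 1.95, in that order. Over the 37 targets with both differences 15 had the same sign, Pearson's r was 0.29 and Spearman's rho 0.16, and without the 5 OpenArray calls among them they were 0.04 and -0.02 over 32 targets. The widest differences on the 7900HT after Cyp1a1 were Col18a1 (a collagen chain) at 3.91, Tiparp at 3.18 and Cyb5a (cytochrome b5) at -3.00, and those of Col18a1 and Cyb5a on the OpenArray were 0.60 and 0.04. Corn oil SD over groups was larger on the 7900HT for 37 of 38 shared targets, and its median over each platform's targets was 0.97 on the 7900HT and 0.21 on the OpenArray.

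On the 7900HT the genes fell into sets by the number of rows each has in the cycle table. In corn oil at 1.5 h 12 of 14 targets with 4 rows were above 0, with a median of 2.39, and 25 of 25 with 2 rows were below 0, with a median of -1.46. Over all 39, corn oil at 1.5 h was below every other corn oil group for 27 (69.2%) and above all for 10 (25.6%), and it was at least 2-fold above corn oil at 19 h for 11 (28.2%) and below for 23 (59.0%). Later TCDD groups on this platform were at least 2-fold higher than their controls for 28.2%, 48.7%, 47.4% and 35.9% of targets at 19, 96, 240 and 384 h and lower for 48.7%, 35.9%, 34.2% and 35.9%. The median differences of the sets with 4 and 2 rows at 1.5 h were 0.13 and -0.55. Srxn1, Derl1, Fmo1, Pmm1 and Col18a1 had differences of 2.14 to 3.91 and Uvrag, Pde2a, Sdc1 and Cyb5a of -2.04 to -3.00, all with 2 rows, whereas on the OpenArray these 9, picked after their values were seen, were at most 0.82. Centring the sets apart gave 16 calls higher and 6 lower, and centring on the median of all gave 8 and 23. The part of the set in these differences was not tested.

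**Figure D4:**
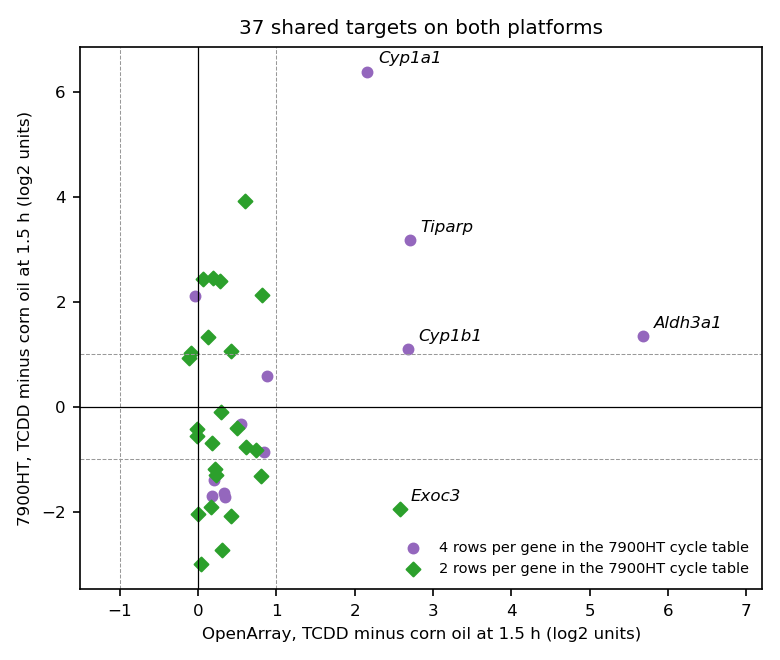
TCDD minus corn oil at 1.5 h in log2 units on the OpenArray (horizontal) and the 7900HT (vertical) for the 37 shared targets, coloured by the number of rows per gene in the 7900HT cycle table; dashed lines mark 2-fold. Cyp1a1, Tiparp, Cyp1b1 and Aldh3a1 are beyond the lines on both axes in the same direction, Exoc3 in opposite directions, and the other points spread along the vertical axis.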

How the data were processed

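Liver RNA was reverse transcribed and amplified by quantitative PCR on both instruments, per the labels' protocols. The authors deposited 1 value per gene and group, taken as a log2 fold change against the strain's own 19 h corn oil group; no header gives the log base. R 2.12.2 was used, per the submitters' processing notes. Which genes served for normalisation, and how failed wells were treated, is not given in the sources used here. The 304 columns of cycle values per animal match no sample label and were not used, so only gene and assay names and rows per gene were read from those tables. The planned description without tests was kept, and TCDD minus corn oil at 1.5 h was computed per gene. Of 50 targets 50 matched RefSeq symbols for GRCr8, 3 through an older one. An ending on 4 OpenArray names was removed. The naming rule took listed genes on the panel, the 10 largest OpenArray differences, 2-fold calls on either platform and opposite 2-fold calls. The members and gene lists were chosen with earlier results of these data known. Alternatives were centring, other controls, 1.5- and 4-fold thresholds and the second platform. The subtraction, centring and counting were checked on made-up group values with known shifts and no noise, which they returned exactly. This says nothing about how often noise alone passes 2-fold. A run with noise of the size of each gene's corn oil SD was also made, and its counts are not used here. Depth is unknown for PCR values, and 3 rats per group limit precision. Software was matplotlib 3.10.9, pandas 2.3.3, numpy 2.4.6, scipy 1.17.1 and Python 3.11.15.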

Additional observations from a re-analysis of the deposited data

Results flagged for a closer look

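The following targets differed at least 2-fold at 1.5 h in the direction opposite to a later time, each against its own corn oil group and at least 2-fold there too. With 1 value per group the differences between times were not tested. On the OpenArray this held for Scn4b, at -3.21 at 1.5 h against 5.03, 7.80 and 8.23 at 19, 96 and 240 h. The other 11 are on the 7900HT, where 71.8% of targets differed 2-fold either way at 1.5 h. Fmo1 was at 2.39 at 1.5 h and between -2.97 and -1.10 at 19 to 384 h, and Nqo1 at -1.40 and between 3.25 and 5.77. Cyp2s1 was at -1.72, Exoc3 at -1.95 and Cmkor1 at -1.31 at 1.5 h, and all 3 were higher at 96 and 240 h. Arnt was at -1.44 against 1.09 at 240 h, Gfer at 2.12 against -1.62 at 96 h and Ghr at 1.32 against -1.03 at 19 h. Tiparp was at 3.18 against -3.51 at 384 h. Ahrr at 1.19 and Aldh3a1 at 1.35 were opposite to differences of -5.45 or below, in genes whose corn oil groups ranged over 17.92 and 27.40 log2 units.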

How the results depend on the processing

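On the OpenArray the counts of 5 higher and 1 lower were also obtained with either centring, either other control and the 4-fold threshold, and the 1.5-fold threshold gave 15 higher. The genes were not the same ones: of the 5 higher, 4 were shared with corn oil at 19 h as control and 3 with all corn oil groups averaged. Leaving corn oil at 1.5 h out of the range gave 17 higher beyond it on the OpenArray, and 10 higher and 13 lower on the 7900HT in place of 4 and 7. Median centring gave 8 higher and 23 lower on the 7900HT, and sets centred apart gave 6 lower. Either centring left 2 OpenArray targets 2-fold below in corn oil at 1.5 h against 19 h, and median centring left 1 on the 7900HT in place of 23. Of targets higher at 19 h, 7 were above 0 at 1.5 h with median and 4 with mean centring. The centring of corn oil at 1.5 h and of targets higher at 19 h, and the narrower corn oil range on the 7900HT, were added after seeing the data. Among differences of at least 2-fold, signs turned with corn oil at 19 h as control for Exoc3 on the OpenArray (-0.079) and on the 7900HT for Ahrr (-9.70), Arnt (1.54), Cyp2s1 (0.45), Ghr (-0.48), Inmt (0.50), Mawbp (-0.26), Nqo1 (1.22), Perp (-0.0042) and Ugt1a1 (1.70). Median centring turned Mawbp (-0.021) and Perp (-0.058) there, and the 7900HT in place of the OpenArray turned Exoc3 (-1.95). Under 2-fold, signs turned more often. On the OpenArray 14 did so with median centring, 28 with mean centring, 19 with corn oil at 19 h, 6 with all corn oil groups averaged and 21 of the shared targets with the 7900HT. On the 7900HT 2 did so with median centring, 2 with sets centred apart and 3 with corn oil at 19 h. The causes were not tested. No paired analysis was possible because each group has 1 deposited value, and for the same reason leaving out replicates was not run.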
